A study of Macaca mulatta with 5 samples.

Results

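MeDIP peaks at least 1000 bp long on chromosomes 1 to 20 of the rhesus monkey (Macaca mulatta) are described here for a pair of cell populations, labelled rESC and R_NSCP1. The members were chosen by length alone: 227 of 44266 peaks on these chromosomes in rESC and 280 of 77158 in R_NSCP1, 507 in all out of 132366 peaks in the complete lists. Length comes from the same peak calls as pileup, fold enrichment and q, so those values describe the members and test nothing about them. Values read from the other library at the same place, and position along the chromosome, were not used in the choice.

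rESC are rhesus monkey embryonic stem cells. The labels do not spell out R_NSCP1, and the title says only that the study is about neural fate arising from these stem cells. The cell type label of both MeDIP samples reads embryonic stem cell, the labels give no treatment, passage or animal, and peak lists without gene names allow no check against markers. Each group had 1 MeDIP library, so no test over samples was possible. Every interval below covers counting error or, for medians over places, the spread between places taken as independent. None covers variation between samples. A further 3 of the 5 samples were a MeDIP input mixed from both populations, not analysed here, and a lncRNA library of each.

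In vertebrate genomes most cytosines that precede a guanine (CpG) carry a methyl group, added by the enzymes DNMT3A and DNMT3B and copied at replication by DNMT1. MeDIP uses an antibody against 5-methylcytosine to pull down sheared DNA. The yield of a fragment therefore rises with the number of methylated CpGs it carries, and a stretch that is rich in CpG and methylated throughout stacks fragments over more than a fragment's own length. Methylation is redistributed when pluripotent cells commit to a lineage, which is the question a comparison of stem cells with their progeny addresses.

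The rESC library held 8690541 tags and the R_NSCP1 library 9071243. Pileup, the number of fragments stacked at the highest point of a peak, is scaled below to fragments per 1000000 of these tags (FPM). Peaks were called by the authors without a control, so copy number and mappability were not removed, and no place below is shown to be methylated by its peak. Fold enrichment and q are the authors' values per peak.

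Long peaks were rare, and they were less in excess in R_NSCP1 than peaks under 500 bp. They made up 0.513% of rESC peaks and 0.363% of R_NSCP1 peaks, and 1.84% and 1.36% of the bases under peaks. R_NSCP1 held 1.23 times as many long peaks as rESC (1.03 to 1.48, 95% exact binomial interval of the counts), against 1.74 times as many peaks of any length (1.72 to 1.76). By length class the ratio was 1.90 (1.87 to 1.93) under 300 bp, 1.59 (1.55 to 1.62) from 300 to 499 bp, 1.37 (1.30 to 1.43) from 500 to 699 bp and 1.38 (1.26 to 1.51) from 700 to 999 bp. The interval of the long class overlapped those of the 2 classes below it and not those of the 2 shortest. The fragment length used for stacking was 249 bp in rESC and 236 bp in R_NSCP1. Lowering the R_NSCP1 minimum by this difference, to 987 bp, gave 307 long R_NSCP1 peaks and a ratio of 1.35 (1.14 to 1.61), level with the 2 classes below and still under the ratio of peaks shorter than 300 bp. That interval overlaps the one of the class from 300 to 499 bp. Only the long class was adjusted in this way, and the limits of the shorter classes stayed equal in both lists.

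**Figure D1:**
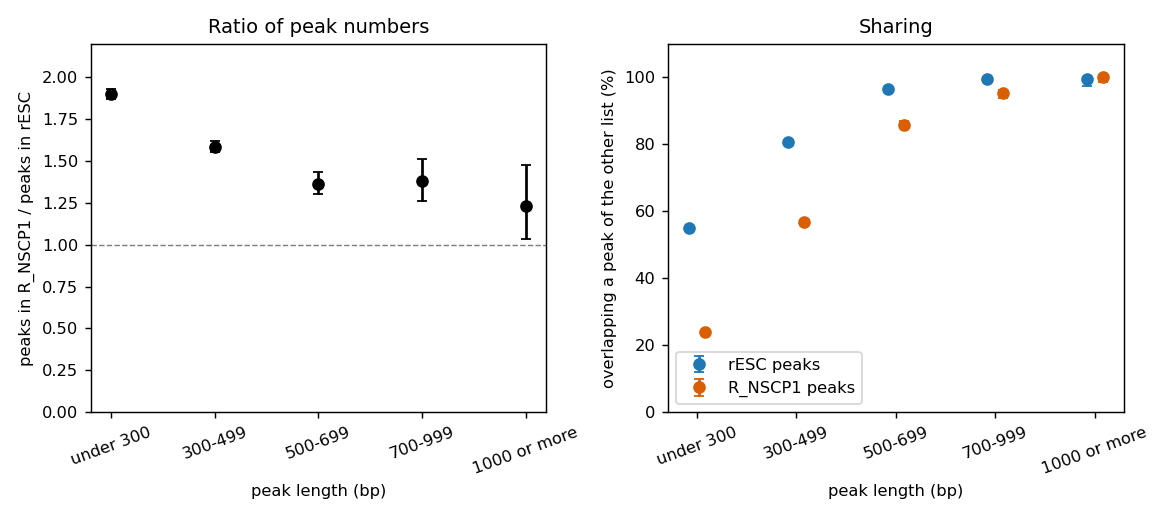
Left, the number of R_NSCP1 peaks divided by the number of rESC peaks in 5 classes of peak length, with 95% exact binomial intervals. Right, the percentage of peaks of each list that overlap a peak of the other by at least 1 bp, with 95% Wilson intervals. The ratio is 1.90 in the shortest class and 1.23 in the longest, where sharing is 99.6% for rESC and 100% for R_NSCP1.

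Most long peaks lay near the length minimum. The median length was 1135 bp in rESC (range 1000 to 2180) and 1122 bp in R_NSCP1 (range 1000 to 2192). Just inside the minimum stood rESC peaks of 1000 bp at chr15:21735799-21736798 and of 1002 bp at chr3:4555239-4556240, with pileups of 6.44 and 2.42 FPM. Just outside stood an rESC peak of 997 bp at chr11:129300501-129301497 and an R_NSCP1 peak of 999 bp at chr1:115689587-115690585, with 2.19 and 3.42 FPM. Pileup in long peaks ran from 1.38 to 42.3 FPM in rESC, with a median of 4.37, and from 1.43 to 41.2 in R_NSCP1, with a median of 4.08. The medians over all peaks of chromosomes 1 to 20 were 1.5 and 1.43.

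Long peaks of either list lay at places that were called in the other as well. In rESC, 226 of 227 long peaks, 99.6% (97.5% to 99.9%, 95% Wilson interval), shared 1 bp or more with an R_NSCP1 peak, against 67.5% of all rESC peaks. In R_NSCP1 all 280 overlapped an rESC peak (98.6% to 100%), against 38.7% of all R_NSCP1 peaks. Long peaks offer more bases for an overlap of 1 bp and had higher pileups than all peaks. The part of either in the shares with a partner, here and below, was not tested. Sharing rose through the length classes. In the class from 700 to 999 bp it was already 99.4% (98.6% to 99.7%) for rESC and 95.2% (93.8% to 96.3%) for R_NSCP1. The R_NSCP1 interval of that class lay below that of the long peaks, while the rESC intervals overlapped. With 1 library each, neither difference could be tested over samples.

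The only long peak without a partner was an rESC peak of 1042 bp at chr3:4051011-4052052. It had a pileup of 25 fragments, 2.88 FPM, a fold enrichment of 5.04 and a −log10 q of 9.17. This is in the lower part of the rESC long peaks, where the median pileup was 38 fragments and the median −log10 q 18. The nearest R_NSCP1 peaks were 248 bp long and 3035 bp away on 1 side, at 2.87 FPM, and 844 bp long and 8294 bp away on the other, at 5.95 FPM. No long R_NSCP1 peak lacked a partner, a count of 0 of 280.

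Being called in the other list did not mean being long there. Of the 227 long rESC peaks, 122 met a long R_NSCP1 peak, 53.7% (47.3% to 60.1%), against 0.827% of all rESC peaks. Of the 280 long R_NSCP1 peaks, 122 met a long rESC peak, 43.6% (37.9% to 49.4%), against 0.389% of all R_NSCP1 peaks. A single long peak was the partner of 117 long rESC peaks, a single shorter peak of 44, several shorter peaks of 60, and several peaks with a long one among them of 5. For long R_NSCP1 peaks these numbers were 115, 82, 76 and 7. A single shorter partner was found under 19.4% (14.8% to 25%) of long rESC peaks and 29.3% (24.3% to 34.9%) of long R_NSCP1 peaks, and the intervals overlapped.

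**Figure D2:**
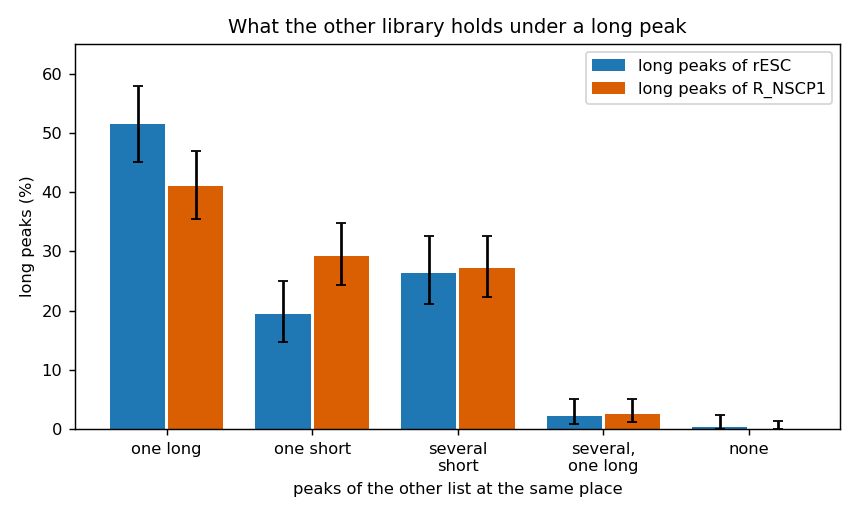
The percentage of long peaks (227 in rESC, 280 in R_NSCP1) by what the other list holds at the same place, with 95% Wilson intervals. A single long peak is the most frequent partner in both lists, and several shorter peaks make up 26.4% and 27.1%.

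Where a long peak met several peaks, the pieces together covered most of it. Long rESC peaks with several shorter partners were covered for a median of 82.3% of their length, and the longest piece had a median of 633 bp. Long R_NSCP1 peaks in this class were covered for 83.5%, with a longest piece of 623 bp. The widest gap between pieces had a median of 139 bp (range 35 to 688) over the 65 long rESC peaks with several partners and of 87 bp (range 34 to 463) over the 83 of R_NSCP1. No neighbouring peaks of a list stood closer than 34 bp anywhere, and the tag size in the headers is 33 bp. When partner peaks less than 250 bp apart were joined, a single long partner stood under 74.3% of shared long rESC peaks in place of 51.8%, and under 64.3% of long R_NSCP1 peaks in place of 41.1%.

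A lone shorter partner covered a median of 82.1% of a long rESC peak and 75.6% of a long R_NSCP1 peak. Under 50% of the length was covered in 10 rESC and 15 R_NSCP1 long peaks. The thinnest overlap was at chr13:437841-438932 in R_NSCP1, where an rESC peak of 358 bp covered 12.0%. This example was picked for its value.

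Of the 10 longest peaks of each list, 8 in rESC and 6 in R_NSCP1 had a single long partner, and 2 and 4 met several peaks. At least 90% of the length was covered in 7 and 5 of them. Some were called over nearly the same bases. At chr15:109018790-109020969 the rESC peak had a pileup of 158 fragments, 18.2 FPM, and the R_NSCP1 peak of 2192 bp had 172, 19.0 FPM. At chr3:60942182-60943905 peaks of 1724 and 1717 bp had 321 and 325 fragments, 36.9 and 35.8 FPM. At chr15:726331-728081 peaks of 1751 and 1793 bp had 71 and 84 fragments, 8.17 and 9.26 FPM. At these 3 places the libraries differed by less than the counting intervals of their pileups.

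At a pair of places on chromosome 2 the rESC pileup was higher. At chr2:113049613-113051588 it was 265 fragments, 30.5 FPM, against 192 or 21.2 in R_NSCP1, a log2 ratio of R_NSCP1 over rESC of -0.53 (-0.80 to -0.25, exact binomial interval of the fragments, scaled to the tags). At chr2:41180717-41182464 it was 212 fragments, 24.4 FPM, against 165 or 18.2, a log2 ratio of -0.42 (-0.73 to -0.12). The R_NSCP1 peak there was the longer of the pair, 2094 bp against 1748 bp. A higher pileup and a longer peak thus stood in different libraries.

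Others of the longest rESC peaks, and long rESC peaks with the most partners, were covered in part or split. The rESC peak of 1757 bp at chr15:9345703-9347459, at 4.37 FPM, faced a single R_NSCP1 peak of 1121 bp at 4.63 FPM. The rESC peak of 1819 bp at chr6:147730635-147732453, at 4.72 FPM, faced R_NSCP1 peaks of 731 and 818 bp at 4.19 and 3.31 FPM. The peak of 1773 bp at chr12:11887906-11889678, at 6.21 FPM, faced peaks of 583 and 537 bp at 3.64 and 4.30 FPM, with 688 bp between them. At chr4:167529641-167530988 a peak of 1348 bp and 4.72 FPM faced 3 peaks of 474, 369 and 363 bp at 3.53, 2.87 and 2.43 FPM. At chr8:44747716-44749172 a peak of 1457 bp and 8.63 FPM faced 3 peaks at 2.87, 3.64 and 6.95 FPM. At chr10:54078687-54079690 a peak of 1004 bp and 2.88 FPM faced 3 peaks of 355, 288 and 263 bp at 4.08, 2.98 and 2.09 FPM, of which the first 2 exceeded it. Over the 65 long rESC peaks with several partners, every piece had a lower pileup than the rESC peak in 41, and a piece was as high or higher in 24.

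Long R_NSCP1 peaks were split in rESC as well. Of the 83 with several partners, every rESC piece was lower in 63 and a piece was as high or higher in 20. The R_NSCP1 peak of 1789 bp at chr14:6212540-6214328, at 5.95 FPM, faced rESC peaks of 552 and 811 bp at 5.06 and 6.44 FPM, so that the higher rESC piece exceeded it. The R_NSCP1 peak of 1851 bp at chr14:74654608-74656458, at 5.07 FPM, faced rESC peaks of 389 and 1250 bp at 3.22 and 3.80 FPM. At chr13:38646339-38647531 an R_NSCP1 peak of 1193 bp and 3.20 FPM faced 3 rESC peaks of 626, 255 and 263 bp at 2.88, 1.84 and 1.84 FPM. At chr4:3726560-3727577 a peak of 1018 bp and 4.08 FPM faced 3 rESC peaks at 1.61, 1.84 and 2.07 FPM. Up to 3 partner peaks were found per long peak in both lists, in 9 rESC and 3 R_NSCP1 cases.

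**Figure D3:**
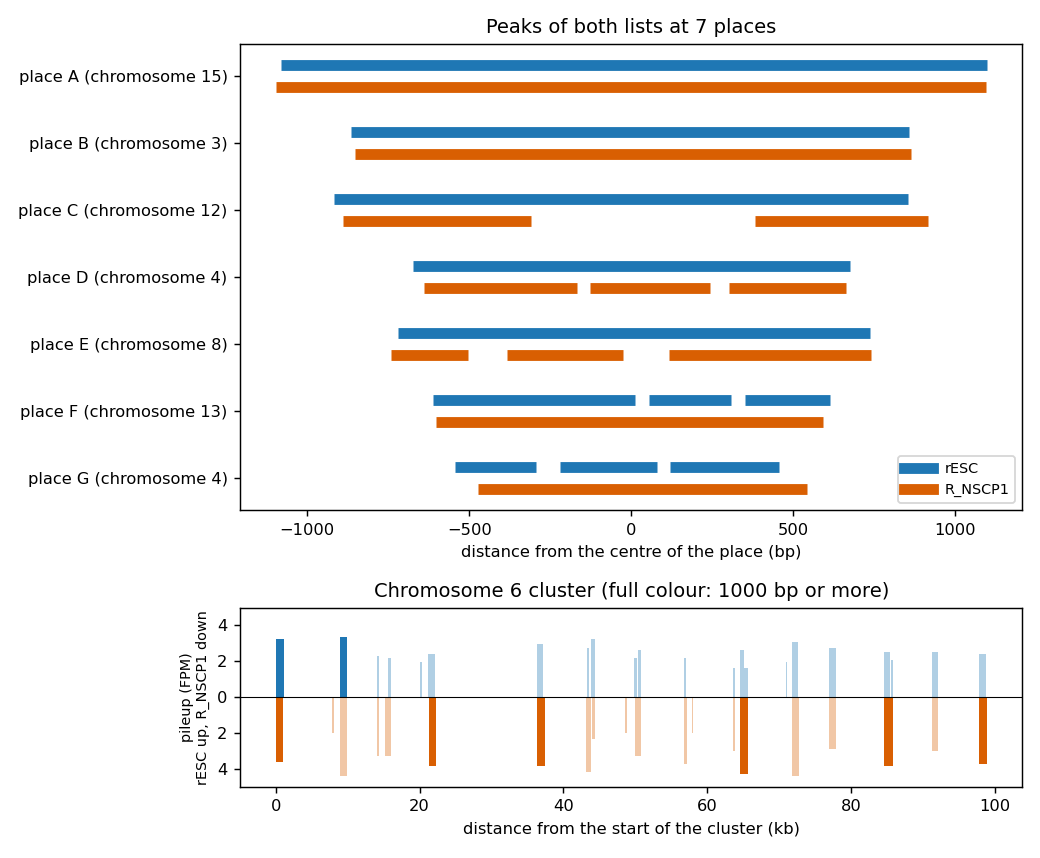
Top, peaks of rESC (blue) and R_NSCP1 (orange) as bars at 7 places, as distance in bp from the centre of each place; A (2180 and 2192 bp) and B are long in both lists, C to E are long in rESC and split in R_NSCP1, F and G the reverse. Bottom, pileup in FPM of every peak in the chromosome 6 cluster, rESC upwards and R_NSCP1 downwards, where 2 rESC and 6 R_NSCP1 peaks reach 1000 bp.

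Places were then defined by joining overlapping long peaks of both lists, so that the libraries entered alike. There were 385 places: 122 long in both lists, 105 long in rESC only and 158 long in R_NSCP1 only. At the 384 places called in both lists, the highest scaled pileup had a median log2 ratio of R_NSCP1 over rESC of 0.15 (0.11 to 0.20, 95% binomial interval of the median over places), with 252 places higher in R_NSCP1 and 132 higher in rESC. Over all 29532 places of chromosomes 1 to 20 that were called in both lists, long or not, the median was 0.16. The ratio at long places was therefore close to that of shared peaks in general.

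The extremes of the ratio were small. The range was -1.10 to 1.11, and 334 of the 384 places, 87.0%, lay within 1.5-fold, against 81.1% of all shared places. All shared places had lower pileups, with medians of 1.73 (rESC) and 1.87 FPM (R_NSCP1) against 3.68 and 3.97, and so a larger counting error. The 2 percentages are therefore not alike in counting error. By class the median was 0.14 (0.06 to 0.21) at places long in both lists, 0.00 (-0.17 to 0.10) at places long in rESC only and 0.26 (0.20 to 0.30) at places long in R_NSCP1 only. The last 2 values are set in part by the choice of class, since length and pileup come from the same call. Across the 384 places, the log2 scaled pileups of rESC and R_NSCP1 had a Pearson correlation of 0.907 and a Spearman correlation of 0.799. The points share 2 libraries and the same positions, and this correlation is a description.

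**Figure D4:**
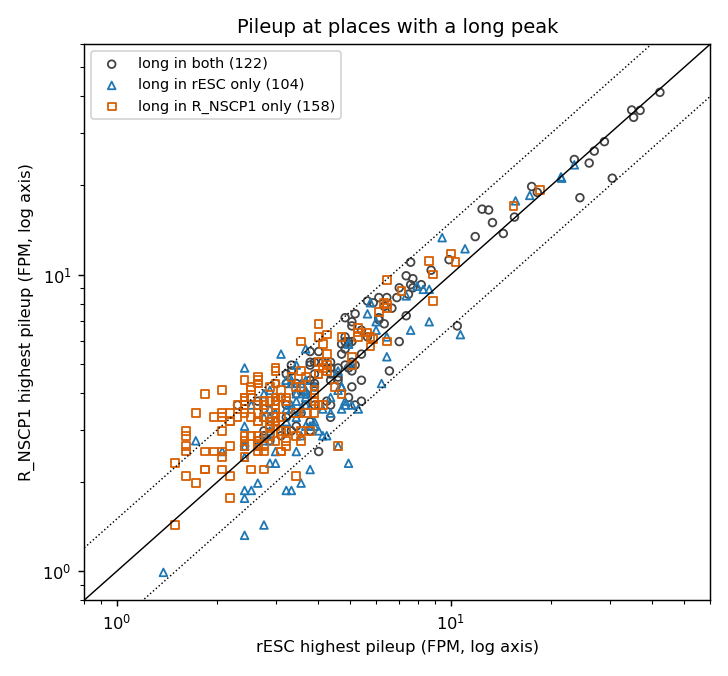
Highest pileup in FPM in rESC (horizontal) and R_NSCP1 (vertical), both on log axes, at the 384 places with a long peak that were called in both lists. The solid line marks equal values and the dotted lines a 1.5-fold difference, within which 334 places lie.

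A pileup of at least 10 FPM in either list, a limit set after the values were seen, was reached by 36 places. Their median log2 ratio was 0.06 (-0.02 to 0.18), and 34 of them, 94.4%, lay within 1.5-fold. Of the 348 places under the limit in both lists, 300 lay within 1.5-fold. Higher counts have a smaller counting error, so a closer ratio at high places is not by itself a difference between the classes. The counting interval of the ratio held 0 at 29 of the 36 high places and at 335 of the 348 others. The 2 high places outside 1.5-fold were chr5:1081871-1083150, with 93 fragments in rESC and 57 in R_NSCP1 (-0.77, -1.27 to -0.28), and chr17:17253238-17254421, with 91 and 61 (-0.64, -1.13 to -0.16). The limit was reached in both lists by 28 of the places, on 15 chromosomes, 6 of them on chromosome 2 and 4 on chromosome 13.

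The same 4 places led both lists, among them chr3:60942182-60943905. The highest, chr2:39343255-39344490, had 368 fragments in rESC and 374 in R_NSCP1, 42.3 and 41.2 FPM. The place chr2:183653069-183654245 had 307 and 308 fragments, 35.3 and 34.0 FPM. The place chr13:47636466-47637673 had 303 and 326, 34.9 and 35.9 FPM. Since at most 1 tag was kept per position, and on each strand, the pileup cannot pass 498 fragments in rESC and 472 in R_NSCP1. The highest long peaks reached 73.9% and 79.2% of that ceiling, and the median long peak 7.63% and 7.84%. The part of this ceiling in the ratios at high places was not tested.

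High places had a higher background from the peak caller than the others. With no control, it was taken from each library's own fragments over 10000 bp, which include those of the peak. Choosing places by pileup therefore sets part of this difference. The background implied by pileup and fold enrichment, which gave back the listed p-value within 1% for over 99% of peaks (99.996% in rESC and 99.997% in R_NSCP1), had a median of 13.6 fragments in rESC and 15.8 in R_NSCP1 at the 28 places high in both lists, against 3.57 and 4.0 at the others. The median over all peaks was 1.12 and 1.09. At chr3:60942182-60943905 it was 74.1 and 74.4 fragments, and the fold enrichment only 4.29 and 4.32. At chr9:446524-447630, with 204 and 222 fragments, it was 12.9 and 13.5, and the fold enrichment 14.8 and 15.4. Backgrounds at these 28 places ran from 4.48 to 74.1 fragments in rESC and from 5.29 to 74.4 in R_NSCP1. All lay above the median over all peaks, and the part of copy number or mappability was not tested.

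The 5 largest ratios in each direction were at places with 12 to 44 fragments, where the counting intervals are wide. Towards R_NSCP1 they were chr5:148212761-148213777, with 16 fragments in rESC and 36 in R_NSCP1 (log2 ratio 1.11, 0.22 to 2.06), chr3:51202891-51204002, with 21 and 44 (1.01, 0.22 to 1.83), and chr2:88025896-88026977, with 15 and 31 (0.99, 0.05 to 1.98). The place on chromosome 3 was long in rESC, 1112 bp, and shorter in R_NSCP1, 792 bp, where its pileup was higher. Next came chr4:3726560-3727577, with 18 and 37 fragments (0.98, 0.13 to 1.88), and chr20:56293498-56294511, with 14 and 27 (0.89, -0.10 to 1.93).

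Towards rESC the largest difference was at chr18:71298724-71299815, with 43 fragments in rESC and 21 in R_NSCP1 (-1.10, -1.92 to -0.31). It was followed by chr4:40735007-40736046, with 24 and 13 (-0.95, -2.04 to 0.08), chr8:61683220-61684333, with 21 and 12 (-0.87, -2.03 to 0.22), chr6:2832691-2833750, with 31 and 18 (-0.85, -1.77 to 0.04), and chr7:128823862-128824916, with 29 and 17 (-0.83, -1.79 to 0.08). The intervals of the last 4 and of the place on chromosome 20 held 0. These places were picked as the extremes of 384, which the single intervals do not allow for. Towards rESC, the highest points of the libraries lay 903 bp apart on chromosome 8, 813 on chromosome 6, 198 on chromosome 7 and 40 on chromosome 4. Towards R_NSCP1 they lay 28 bp apart on chromosome 5, 142 on chromosome 3, 47 on chromosome 2 and 21 on chromosome 4.

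Long peaks gathered at chromosome ends. Of the long rESC peaks, 92 or 40.5% (34.4% to 47.0%) had their midpoint in the outermost 5% of a chromosome, counted from each end, against 21.7% of all rESC peaks. Of the long R_NSCP1 peaks, 124 or 44.3% (38.6% to 50.1%) lay there, against 21.1% of all R_NSCP1 peaks. In the outermost 1% the shares were 12.8% (9.04% to 17.7%) and 17.9% (13.8% to 22.8%), against 5.77% and 5.32%. The low-coordinate end held 54 and the high-coordinate end 38 of the long rESC peaks, and 72 and 52 of the long R_NSCP1 peaks. Over all peaks both ends held like shares, 10.7% and 11% in rESC.

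This share rose with peak length and did not begin at 1000 bp. In rESC it was 18.2% under 300 bp, 24.4% from 300 to 499 bp, 32.0% from 500 to 699 bp and 39.0% (35.7% to 42.3%) from 700 to 999 bp. In R_NSCP1 the class from 700 to 999 bp stood at 37.1% (34.4% to 39.9%). Both intervals overlapped those of the long peaks. Of the 122 places long in both lists, 61 (41.3% to 58.7%) lay in the outermost 5%, against 29.5% (21.6% to 38.8%) of those long in rESC only and 39.9% (32.6% to 47.7%) of those long in R_NSCP1 only. Chromosome spans were taken as the largest coordinate in the files, since no source used here names the genome build.

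**Figure D5:**
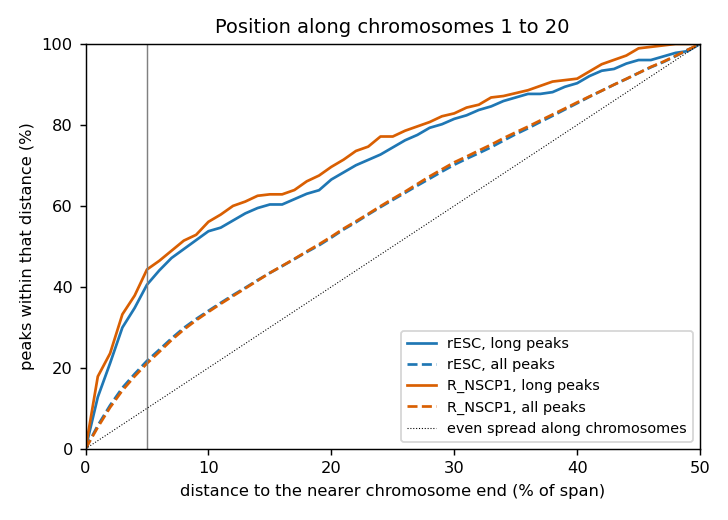
The percentage of peaks within a given distance of the nearer chromosome end, as a percentage of the chromosome's span, for long peaks (solid) and all peaks (dashed) of chromosomes 1 to 20. At the vertical line, 5%, the long peaks stand at 40.5% (rESC) and 44.3% (R_NSCP1) and all peaks at 21.7% and 21.1%.

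Among chromosomes, chromosome 15 had the most long peaks for its number of peaks in both lists: 16 in rESC, or 8.47 per 1000 peaks (5.22 to 13.7), and 24 in R_NSCP1, or 7.47 (5.03 to 11.1). Chromosome 11 was lowest in rESC with 6, or 2.79 per 1000 (1.28 to 6.08), and chromosome 18 in R_NSCP1 with 4, or 1.73 (0.674 to 4.45). R_NSCP1 had more long peaks on 13 chromosomes, rESC on 4, and 3 had equal numbers. Per 1000 peaks, however, R_NSCP1 had fewer long peaks than rESC on 16 of the 20 chromosomes. By number, the rESC surplus was widest on chromosome 7, with 17 against 11 (6.54 and 2.34 per 1000 peaks). The R_NSCP1 surplus was widest on chromosome 6, with 10 in rESC against 20 (3.94 and 4.69 per 1000 peaks).

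The chromosome 6 surplus was in part a cluster. Neighbouring long peaks of a list were a median of 4.08 Mb apart in rESC and 3.01 Mb in R_NSCP1 (4077449 and 3011955 bp), and only 11 and 25 gaps were 100 kb or less. The largest group linked by such gaps held 6 long R_NSCP1 peaks within 98.8 kb at chr6:138709504-138808353, away from the chromosome ends. They were 1001 to 1290 bp long, at 3.64 to 4.30 FPM, and the gaps between them were 12.0 to 27.1 kb. In the same interval rESC had 22 peaks against 20 in R_NSCP1, of which 2 were long, 1122 bp at chr6:138709563-138710684 and 1041 bp at chr6:138718376-138719416. The first of these overlapped a long R_NSCP1 peak, and the second an R_NSCP1 peak of 937 bp.

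Both libraries were therefore called at the same series of places in this cluster. At 17 places called in both lists the median log2 ratio of scaled pileup was 0.52 (range -0.48 to 0.89), and 16 of the 17 were higher in R_NSCP1. The cluster was picked for its long R_NSCP1 peaks, so this direction is no independent evidence. The rESC peaks there that faced long R_NSCP1 peaks were shorter or split, apart from that of 1122 bp: 947 bp against 1001 bp, 768 against 1189, 957 against 1029, pieces of 468 and 502 bp against 1024, and pieces of 833 and 336 bp against 1290. A pair of further long R_NSCP1 peaks, of 1004 and 1011 bp, stood at chr6:139099639-139118449.

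The rESC group with the most long peaks was of the opposite kind. At chr4:166823718-166898670, near a chromosome end, rESC had 3 long peaks of 1130, 1574 and 1111 bp at 4.72, 5.06 and 4.60 FPM. R_NSCP1 had 11 peaks there and none of 1000 bp. The rESC peak of 1574 bp faced R_NSCP1 peaks of 547 and 717 bp at 3.64 FPM each, and that of 1111 bp faced a peak of 344 bp at 2.65 FPM. At the 5 places called in both lists the log2 ratio had a median of -0.48 (range -0.80 to 0.62), in a group likewise picked for its long peaks.

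The next 3 groups by number of long peaks lay in the outermost 5% of their chromosomes. At chr5:1543584-1639376 R_NSCP1 had 3 long peaks, the first 2 of them, 1563 and 1051 bp, separated by 82 bp, where rESC had 3 peaks of 634, 792 and 694 bp. At chr6:550007-692325 R_NSCP1 had 3 long peaks and rESC 2. At chr1:11145778-11147986 R_NSCP1 had peaks of 1085 and 1061 bp separated by 63 bp, where rESC had peaks of 322, 598 and 1116 bp. By long peaks per kb this last group was the densest of all (0.905), followed by pairs at chr17:94461026-94468554 (0.266) in R_NSCP1 and at chr6:138709563-138719416 (0.203) in rESC, the latter inside the chromosome 6 cluster.

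Few long peaks met a listed lncRNA. Of the long rESC peaks 4, 1.76% (0.687% to 4.44%), overlapped a lncRNA body, against 0.732% of all rESC peaks, and of the long R_NSCP1 peaks 2, 0.714% (0.196% to 2.57%), against 0.691% of all R_NSCP1 peaks. Counted by the midpoint the numbers were again 4 and 2, against 0.718% and 0.671% of all peaks. These backgrounds lay within the intervals. Within 1000 bp of a lncRNA start lay 1 long rESC peak, 0.441% (0.0778% to 2.45%), against 0.151% of all rESC peaks, and 2 long R_NSCP1 peaks, 0.714% (0.196% to 2.57%), against 0.143% of all R_NSCP1 peaks. The R_NSCP1 background lay outside that interval, on a count of 2. This window was measured from the peak's edges, so longer peaks reach further. The midpoints of these 2 peaks lay 757 and 1061 bp from the start, so the second counted only through its length. The lncRNA levels are FPKM values made by the authors, of unknown depth, with 1 library per population.

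Long peaks of both lists overlapped lncRNAs at 2 places. At chr2:109336135-109337527, with 125 fragments in each library (14.4 and 13.8 FPM), the rESC peak covered most of a short lncRNA of the minus strand, chr2:109335752-109337430, that had FPKM values of 4.66 (rESC) and 1.26 (R_NSCP1). Its start lay under the rESC peak, 599 bp from the midpoint, and outside the long R_NSCP1 peak. R_NSCP1 had 2 peaks at this place, and whether the shorter one covered the start was not examined. At chr9:446524-447630 the peak lay inside 2 lncRNAs of the plus strand and 1 of the minus strand, which overlap each other. The plus-strand lncRNAs stood at 1.47 and 2.39 in rESC and at 2.16 and 2.16 in R_NSCP1, the minus-strand lncRNA at 2.37 and 3.80. The pileup at both places differed by less than its counting interval.

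In rESC only, long peaks also lay inside a lncRNA at chr7:49573914-49574981 (FPKM 17.6 and 10.002) and at chr8:61683220-61684333 (6.41 and 2.53). The place on chromosome 8 is among those with the largest pileup ratio towards rESC, read at points 903 bp apart in the libraries. The number of such places is too small to relate peak length to lncRNA level.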

How the data were processed

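Per the file headers, MACS 2.1.0.20150731 called peaks on each MeDIP library alone, with no control, a q cutoff of 0.01, at most 1 tag per position and a regional background over 10000 bp. BWA 0.7.7, MACS2 and TopHat2 2.0.11 are named in the submitters' processing notes. The deposited pileup is a signal in fragments, not scaled between libraries, and was scaled to 1000000 of the header's tags after filtering, which equal its total tags. The fold enrichment, −log10 p and −log10 q in the deposited lists refer to each library's own background. The authors deposited lncRNA levels in FPKM. Their deposited p-value column was not used. No source used here names the genome build, and the RefSeq gene table's coordinates run to other chromosome lengths, so no genes or sequences were assigned to peaks.

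Coordinates are 1-based, as in the files. Peaks with 1 bp or more in common were shared, with partners sought on any sequence. The implied background is pileup plus 1, over fold enrichment, minus 1. Named places were the 10 longest, the 5 with the highest scaled pileup, those without partner and the 5 with the most partners in each list, the 5 largest pileup ratios in each direction, the 5 clusters (neighbours within 100 kb) with the most long peaks, ties by long peaks per kb, those around the length minimum and those overlapping lncRNAs. Of these, the ones that show each pattern are printed. The members and lists were chosen with earlier results of these data known. On simulated data the overlap step equalled a brute-force count in 300 of 300 intervals. A log2 ratio of 0.5 planted in Poisson draws at the pileups of 227 long rESC peaks came back as a median of 0.47. Those draws did not pass through the joining of places, the choice among partners or the scaling, so they check none of these steps. Scripts ran in Python 3.11.15 with pandas 2.3.3, numpy 2.4.6, matplotlib 3.10.9 and scipy 1.17.1.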

Additional observations from a re-analysis of the deposited data

How the results depend on the processing

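Of 80 recomputed values, 47 stayed within the 95% interval of the value reported or, for counts, within 1.5 times, 33 moved further and none changed direction. In the order rESC and R_NSCP1, long peaks numbered 615 and 838 at a minimum of 800 bp, 16 and 22 at 1500 bp, and 428 and 585 when peaks less than 250 bp apart were joined. The share with a partner was 100% for rESC at 1500 bp and outside the outermost 5% (the latter chosen after seeing the data), and 98.0% for R_NSCP1 at 800 bp. It was 95.1% and 86.0% with a −log10 q of at least 10 in both lists, 95.6% and 94.6% when 50% of the long peak had to be covered, and 81.9% and 80.7% with a reciprocal overlap of 50% by a single partner. A single long partner stood under 62.2% (800 bp) and 62.5% (1500 bp) of shared long rESC peaks. It stood under 59.2% and 51.3% at a −log10 q of 10, 62.9% and 50.9% with reciprocal overlap, and 74.3% and 64.3% with partners joined. At 1500 bp the median pileup was 6.62 and 7.39 FPM and the rESC share in the outermost 5% was 50%. At this minimum 0% overlapped lncRNAs in both lists. The median log2 ratio there was 0.072 (-0.25 to 0.23) over 28 places. That interval holds 0, so the direction at 1500 bp is not determined. The outermost 10% held 53.7% and 56.1% of long peaks (34.1% and 33.8% of all peaks), and the outermost 5 Mb 36.8% for R_NSCP1 (17.4% of all). Within 1000 bp of a lncRNA start lay 0.441% of long rESC peaks (0.151% of all). Scaling to total tags changed nothing, because the headers list the same number for both. No paired analysis was possible because each group had 1 library. Depth limits single places: at a pileup of about 20 fragments a 2-fold ratio only just clears its counting interval.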

Other observations

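Outside chromosomes 1 to 20, chromosome X held 7 long rESC peaks and 10 long R_NSCP1 peaks, and the remaining sequences 30 and 31. All of these overlapped a peak of the other list. They made up 0.387% and 0.366% of the peaks of chromosome X, and 1.08% and 0.852% of those of the remaining sequences. Their median pileup in FPM was 6.10 and 5.62 on chromosome X and 6.04 and 5.51 on the remaining sequences, against 4.37 and 4.08 for the long peaks of chromosomes 1 to 20.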
